A study of Homo sapiens with 3 samples.

Results

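The DMRT1 peaks described here lie between genes, outside annotated repeats, and more than 2 kb but at most 100 kb from the nearest transcription start site (TSS). DMRT1 is a transcription factor that binds DNA through a DM domain, and CUT&RUN maps such binding by sending a nuclease to the antibody-marked protein and sequencing the DNA fragments it frees. The members were taken from the deposited peak table by its annotation alone, as peaks called intergenic, with no repeat element named, at an absolute TSS distance above 2 kb and up to 100 kb. This gave 886 of the 7764 common peaks on chromosomes 1 to 22, X and Y (11.4%), out of 7818 peaks in all. No signal value entered the choice.

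The cells were primordial germ cell-like cells that had switched on DAZL (DZ+PGCLCs), taken on day 8 and made from WIS2, an established human embryonic stem-cell line. They carried a doxycycline-inducible DMRT1 transgene, a dexamethasone-inducible fusion of SOX17 with the glucocorticoid receptor, and a tdTomato reporter at DAZL, an RNA-binding protein gene of committed germ cells. In the paper, DZ+PGCLCs were made by inducing both transgenes with doxycycline and dexamethasone. The medium held BMP2, SCF and EGF first, then retinoic acid, activin A, SCF and EGF. The series held 2 DMRT1 libraries and 1 IgG library from such cells, and the 2 DMRT1 libraries were reduced by the authors to 1 list of shared peaks. DMRT1 made from the transgene and from the cell's own gene cannot be told apart by the antibody. The list carries no height, score or replicate value, so the members could be described by position, sequence and neighbouring genes, but not by strength of binding, and the depth of the libraries is unknown from it.

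Intergenic regions at this range hold many of the enhancers that act on a promoter from a distance, and also insulator sites that divide the chromosome into loops. DM-domain proteins steer gonad and germ cell development in many animals, and they recognise a near-palindromic sequence built around the core ACAATGT or ACATTGT. The main insulator protein of vertebrates is CTCF, AP-1 is the dimer of FOS and JUN proteins that marks many active enhancers, and SOX and forkhead factors act in germ cell and endoderm fates.

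A sequence fitted to DMRT1 peaks outside this group is shown first, since it is the ruler for the members. A matrix of 15 positions was fitted to 1565 other non-repeat peaks, none of them a member. The fit started from the core, and its share of peaks with a site ran to 99%, the highest allowed. At the score used below, 21.2% of all peaks held the motif. Its leading letters are given here with capitals for letters found in at least 80% of the fitted sites.

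fitted matrix: tGttaCatTgTttct

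The members with the highest matching scores are shown because they match this motif most fully. Capitals mark the 15 matched bases and the lower-case letters are 15 bases on each side, all on the + strand of hg38, and each is named by its nearest gene. Of the 10 highest-scoring members, 9 are shown.

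PCED1B, chr12:47023318-47023362: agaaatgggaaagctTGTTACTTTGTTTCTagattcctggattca
ZNF385D, chr3:21785651-21785695: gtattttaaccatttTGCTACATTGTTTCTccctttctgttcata
LINC02444, chr12:73220636-73220680: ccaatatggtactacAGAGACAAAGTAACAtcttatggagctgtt
MTAP, chr9:21708276-21708320: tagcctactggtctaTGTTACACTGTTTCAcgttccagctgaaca
FGD2, chr6:37039534-37039578: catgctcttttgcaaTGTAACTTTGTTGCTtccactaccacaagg
FAM47B, chrX:34915934-34915978: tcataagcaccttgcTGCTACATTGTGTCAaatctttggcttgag
SKP1P2, chr12:17076591-17076635: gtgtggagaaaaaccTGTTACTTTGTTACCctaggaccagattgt
REG3G, chr2:78967150-78967194: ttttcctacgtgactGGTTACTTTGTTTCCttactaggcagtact
MIR548AP, chr15:85906765-85906809: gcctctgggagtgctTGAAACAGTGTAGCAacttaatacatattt

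The sites at LINC02444 and MIR548AP read as the motif on the − strand. The matched words at PCED1B, FGD2, SKP1P2 and REG3G hold no core, since their centre reads ACTTTGT, whereas those at ZNF385D and FAM47B contain ACATTGT. These genes are only the nearest in sequence, at distances between 26.8 kb (FAM47B) and 94.0 kb (MTAP), and nothing in the data links a peak to the regulation of its neighbour.

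The core itself was present in 187 of 886 members (21.1%, 95% Wilson interval 18.5 to 23.9%), against 49 of 886 flanks (5.53%, 4.21 to 7.24%). Each flank was a stretch of the same width centred 5 kb below the peak. Flanks were taken by position alone and could hold repeats, whereas members with a named repeat were left out. The share in members was 3.82 times that in flanks. The core was in the peak alone for 179 pairs and in the flank alone for 41 (two-sided exact McNemar p = 9.38e-22). Among all 7764 peaks the core was in 24%, so the share among the members was close to that of the whole list. A core flanked by A or T on each side was in 90 members (10.2%) and 15 flanks (1.69%), a 6-fold difference. The fitted motif, at a score that 5% of the flanks of the fitting peaks reached, was in 180 members (20.3%, 17.8 to 23.1%) and 48 flanks (5.42%, 4.11 to 7.11%; p = 1.07e-20, exact McNemar), beside 21.2% of all peaks.

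Most members with the core lacked the fitted motif at this score, and most with the fitted motif lacked the core. Both were found in 53 members, the core alone in 134 and the fitted motif alone in 127, so that 314 members (35.4%, 32.4 to 38.6%) and 93 flanks (10.5%) held at least 1 of them. A further string, TGTAACA or TGTTACA, here called the shifted palindrome, is the left part of the fitted matrix, and its last letters overlap the start of the core. It was in 202 members (22.8%) and 45 flanks (5.08%), a 4.49-fold difference (adjusted p = 5.90e-27, exact McNemar with Benjamini-Hochberg adjustment over 22 strings). This string had been picked out from the whole list of peaks earlier, so its excess here is not independent evidence. Counting all 3, 420 members (47.4%) had a DMRT-like sequence, against 128 flanks (14.4%). The remaining members had none of these letters, which says only that the strings sought were not in the peak.

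Of the 22 strings, 8 were more frequent in members than in flanks (36.4% of those tested) and 1 was less frequent (4.55%), at an adjusted p below 0.05. Beside the DMRT strings, the AP-1 string TGACTCA or TGAGTCA was in 139 members (15.7%) and 38 flanks (4.29%; exact McNemar, adjusted p = 4.62e-16). The CTCF string was in 66 members (7.45%) and 6 flanks (0.677%), an 11-fold difference (exact McNemar, adjusted p = 3.99e-13). The SOX strings CCATTGT and CCTTTGT were in 136 members (15.3%) and 82 flanks (9.26%; exact McNemar, adjusted p = 6.02e-04), and CCATTGT shares 6 of its letters with the core. The C/EBP string TTGCNNAA was in 201 members (22.7%) and 146 flanks (16.5%; exact McNemar, adjusted p = 0.00288), and the forkhead string TGTTTAC in 81 members (9.14%) and 47 flanks (5.30%; adjusted p = 0.00617). The forkhead excess missed the threshold in members outside every GENCODE gene (exact McNemar, adjusted p = 0.234) and in those without another peak within 10 kb (adjusted p = 0.0513).

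The steroid receptor string, the inverted repeat bound by the glucocorticoid receptor, was rare, in 12 members (1.35%) and 1 flank (0.113%; exact McNemar, adjusted p = 0.00836). With the flank taken 5 kb above the peak the ratio was 3-fold and the call was lost (exact McNemar, adjusted p = 0.154), as it was in members at or above the median width (9-fold, adjusted p = 0.0525). The cells had received dexamethasone for the SOX17 fusion, and the part of that agent in these peaks was not tested. The KLF strings GGGTGTGG and GGGCGTGG, GC-rich boxes of Krüppel-like factors, were the ones found less often in members, with 17 (1.92%) against 47 flanks (5.30%; exact McNemar, adjusted p = 3.23e-04). The string of GATA factors was common in both, with 197 members (22.2%) and 213 flanks (24%; exact McNemar, adjusted p = 0.504), and the octamer ATGCAAAT of POU5F1 was in 23 members (2.60%) and 36 flanks (4.06%; adjusted p = 0.188). The TFAP2 string GCCNNNGGC, of which TFAP2C acts in germ cell specification, was in 34 members (3.84%) and 37 flanks (4.18%; exact McNemar, adjusted p = 0.938).

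**Figure D1:**
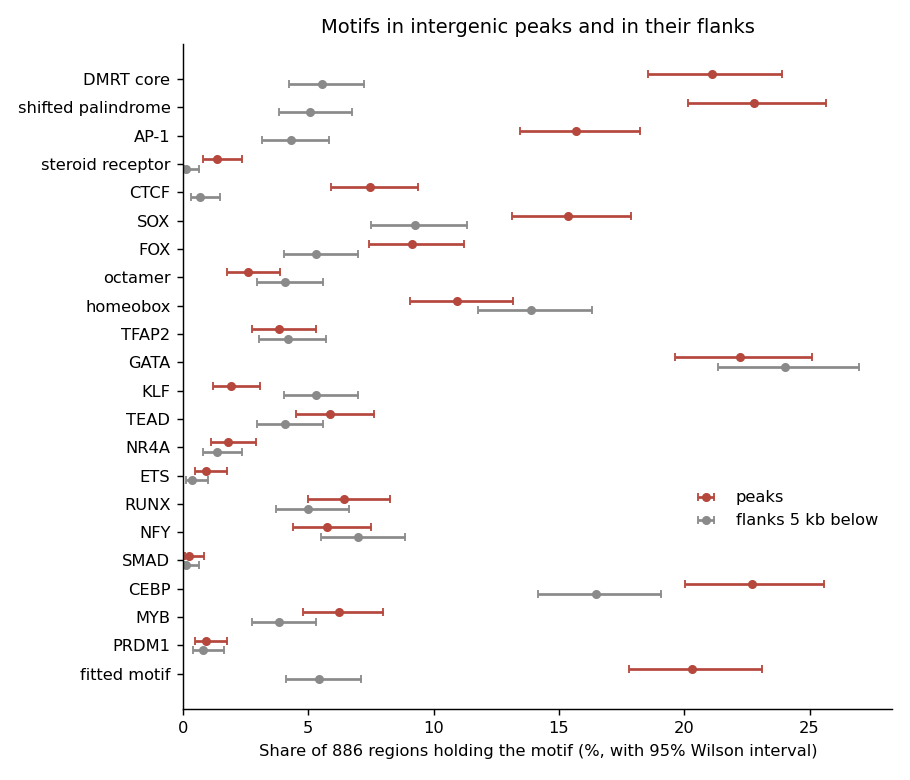
Share of 886 members (red) and of their 886 flanks (grey) that hold each motif, in percent, with 95% Wilson intervals. The core, the shifted palindrome, AP-1, CTCF and the fitted motif stand apart from their flanks, with the core at 21.1% against 5.53%, while GATA and TFAP2 overlap. The NFI string, found in no member and no flank, is not drawn.

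Set against 2 other groups of non-repeat DMRT1 peaks, the members differed in the CTCF string. The groups were the 501 intergenic peaks 100 to 300 kb from a TSS and the 1750 peaks in introns other than the first. The remaining non-repeat peaks, such as those within 2 kb of a TSS or in first introns, were not compared. CTCF was in 66 of 886 members (7.45%, 5.90 to 9.37%), 8 of 501 far intergenic peaks (1.60%, 0.811 to 3.12%) and 40 of 1750 intron peaks (2.29%, 1.68 to 3.10%). The ratio was 4.67 to the far intergenic peaks (adjusted p = 1.54e-05, Fisher's exact test adjusted over 23 motifs) and 3.26 to the introns (adjusted p = 1.86e-08). It was the only call among the 23 motifs in each comparison (4.35% of those tested in each). Both calls stood under every alternative tried, which were a window of 200 bases, members outside GENCODE genes, members up to 50 kb, and members made only of unique sequence.

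None of the DMRT sequences separated the members from these groups. The core was in 21.1% of members, 22% of far intergenic peaks (Fisher's exact test, adjusted p = 0.871) and 22.9% of intron peaks (adjusted p = 0.584). The fitted motif was in 20.3% of members, 16.0% of far intergenic peaks (Fisher's exact test, adjusted p = 0.454) and 21.1% of intron peaks (adjusted p = 0.829). For AP-1 the shares were 15.7%, 15% and 13.1%, with adjusted exact p-values of 0.871 and 0.390. A p above the threshold does not show that the groups are alike, and the Wilson intervals drawn in the plot of the 3 groups give the size of difference these counts allow.

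**Figure D2:**
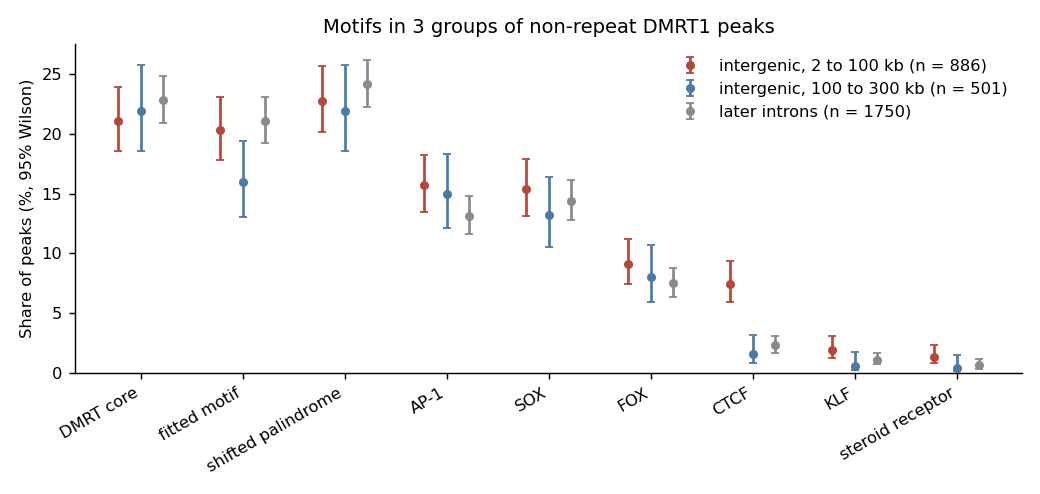
Share of peaks with each of 9 motifs, in percent with 95% Wilson intervals, for the members (red), intergenic peaks 100 to 300 kb away (blue) and peaks in later introns (grey). The CTCF interval of the members, 5.90 to 9.37%, lies above the other 2, and the DMRT motifs overlap in all 3 groups.

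The members with a CTCF string were unlike the rest in several ways that were not used to choose them. They had a median GC content of 55.3% (lowest 28.6%, highest 77.6%), against 37.3% in the 820 other members, and a median of 6 CpG dinucleotides against 1. They were narrower, with a median width of 220.5 bases against 288. They seldom held a DMRT sequence, since 4 of 66 (6.06%, 2.38 to 14.6%) had the core or the fitted motif, against 310 of 820 (37.8%, 34.6 to 41.2%). The nearest gene was protein-coding for 50 of the 66 (75.8%) and for 489 of the 820 (59.6%). Intron peaks with the string had a median GC of 48.7% against 36.5% without it, and 15% against 37.3% had the core or fitted motif. For far intergenic peaks the GC medians were 44.3% and 36.8%, and 0 of 8 against 32.9% had either motif. Width did not run alike, at 261 against 294 bases in introns and 327 against 272 in far intergenic peaks. The string itself is rich in G and C, and these contrasts were chosen after the values were seen and carry no test. The IgG library entered only through the authors' peak calling, and whether it also had signal at these 66 peaks was not tested.

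CTCF strings sat near the middle of the peaks. Their density was 0.655 per kb of sequence within 25 bases of the centre and 0.248 per kb between 25 and 50 bases, and 40 of the 73 strings (54.8%) lay within 50 bases. In intron and far intergenic peaks 56.1% and 50% of CTCF strings did. Cores were spread more evenly, with 0.835 per kb within 50 bases and 0.816 per kb beyond, against 0.175 per kb in the flanks. The fitted motif had 0.722 and 0.816 per kb in those zones. The centre used here is the midpoint of the called interval, and the point of highest signal is not in the table.

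**Figure D3:**
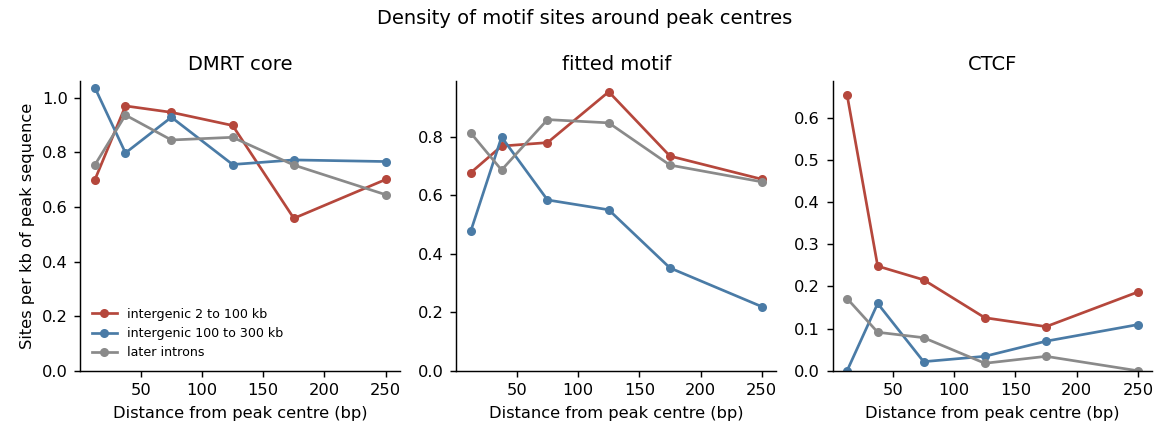
Number of motif sites per kb of peak sequence by distance from the peak centre in base pairs, for the members (red), intergenic peaks 100 to 300 kb away (blue) and later introns (grey). The vertical scale differs between panels. In the members CTCF strings peak at the centre (0.655 per kb within 25 bases) and DMRT cores do not (0.700 per kb there).

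An example of each kind follows, to show that the strings are of different make. Capitals mark the CTCF string in the first pair, the core in the second and the AP-1 string in the third, on the + strand of hg38. GTSF1L is related to a piRNA pathway factor, LINC00620 and LINC01781 are non-coding RNA genes, B3GNT2 encodes a glycosyltransferase, DKK1 is a secreted WNT inhibitor and RSPO3 a secreted WNT enhancer.

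GTSF1L, chr20:43749907-43749948: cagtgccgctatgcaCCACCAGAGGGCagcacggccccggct
LINC00620, chr3:13648418-13648459: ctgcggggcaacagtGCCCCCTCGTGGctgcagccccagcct
B3GNT2, chr2:62193805-62193841: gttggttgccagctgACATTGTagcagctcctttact
LINC01781, whole peak, chr1:80714314-80714493: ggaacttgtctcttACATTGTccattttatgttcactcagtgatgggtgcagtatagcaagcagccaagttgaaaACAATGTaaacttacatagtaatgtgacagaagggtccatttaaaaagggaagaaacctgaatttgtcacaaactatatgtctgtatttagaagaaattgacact
DKK1, whole peak, chr10:52328073-52328282: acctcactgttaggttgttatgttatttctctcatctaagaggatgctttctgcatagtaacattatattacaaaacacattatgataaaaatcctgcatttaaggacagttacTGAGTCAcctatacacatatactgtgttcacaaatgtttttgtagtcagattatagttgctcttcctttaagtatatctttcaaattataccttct
RSPO3, chr6:127102530-127102566: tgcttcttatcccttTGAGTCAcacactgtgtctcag

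The GTSF1L peak was 74.6% GC with 19 CpGs, and the LINC00620 peak 61.2% GC with 5, whereas the LINC01781 peak was 35.6% GC with none and the DKK1 peak 31% GC with none. The LINC00620 string reads as CTCF on the − strand.

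By distance, CTCF was more frequent among the nearer members. It was in 48 of 427 members 2 to 30 kb from a TSS (11.2%, 8.58 to 14.6%) and in 18 of 459 at 30 to 100 kb (3.92%, 2.49 to 6.11%), while the flanks of the same members held 0.703% and 0.654%. This split was chosen after the values were seen, so it is a description. On the same cut the core was in 19.2% (15.7 to 23.2%) and 22.9% (19.3 to 26.9%). The fitted motif was in 19.4% (16.0 to 23.5%) and 21.1% (17.6 to 25.1%), so both pairs of intervals overlapped. The tests that follow used a nearer group. At 2 to 10 kb the core was in 31 of 149 members (20.8%) and at 30 to 100 kb in 105 of 459 (22.9%), a ratio of 0.909 (Fisher's exact p = 0.652). The fitted motif was in 24 (16.1%) and 97 (21.1%) of the same members, a ratio of 0.762 (Fisher's exact p = 0.196). Over 7 bins of distance the core ranged between 11.5% (2 to 5 kb, 61 members) and 28.6% (30 to 50 kb, 175 members), with intervals of 5.67 to 21.8% and 22.4 to 35.7%.

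**Figure D4:**
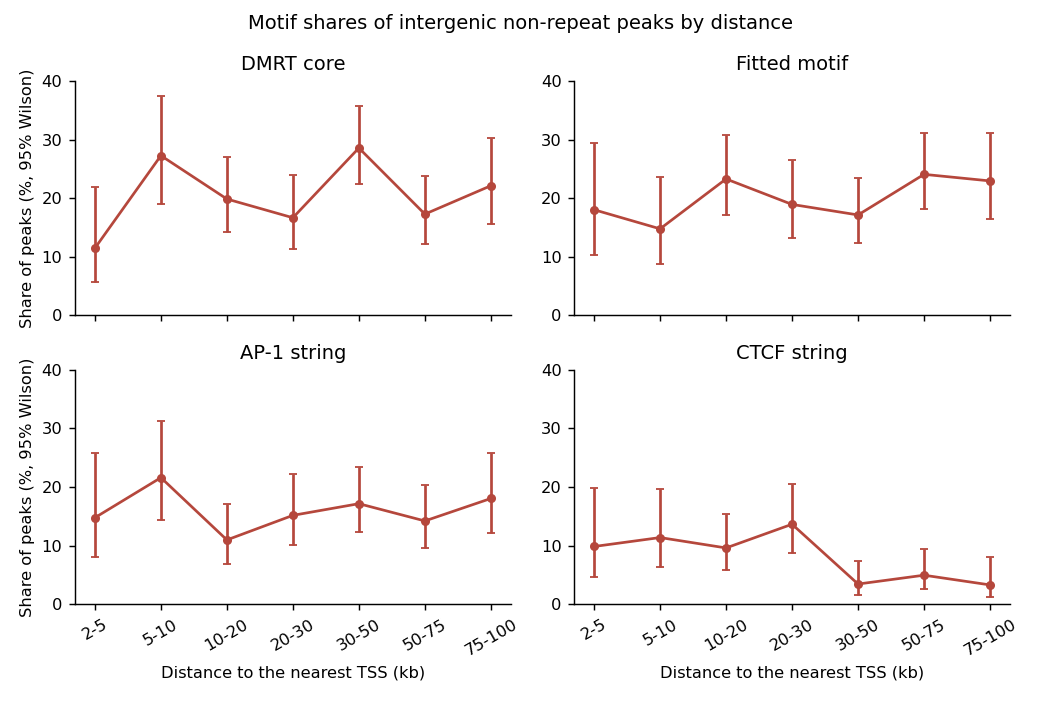
Share of members with the DMRT core, the fitted motif, the AP-1 string and the CTCF string in 7 bins of distance to the nearest TSS, with 95% Wilson intervals. CTCF lies between 9.59% and 13.6% in the 4 bins up to 30 kb and between 3.28% and 4.94% in the 3 bins beyond, and the other panels show no steady trend.

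The members lay at a median of 31.1 kb from the TSS (quartiles 14.7 and 58.5 kb). There were 149 at 2 to 10 kb, 278 at 10 to 30 kb and 459 at 30 to 100 kb. Upstream positions prevailed, with 599 members (67.6%, 64.5 to 70.6%) before the TSS and 287 after it, and 85.2% were upstream in the bin of 2 to 5 kb against 57.4% at 75 to 100 kb. Among intergenic peaks 100 to 300 kb away 262 of 501 (52.3%, 47.9 to 56.6%) were upstream. A peak downstream of a TSS but still inside the gene is annotated to an intron, exon or end of the gene and cannot be a member, so the asymmetry follows in part from the rule. Motif shares on the 2 sides overlapped, with the core in 131 upstream (21.9%, 18.7 to 25.4%) and 56 downstream members (19.5%, 15.3 to 24.5%).

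**Figure D5:**
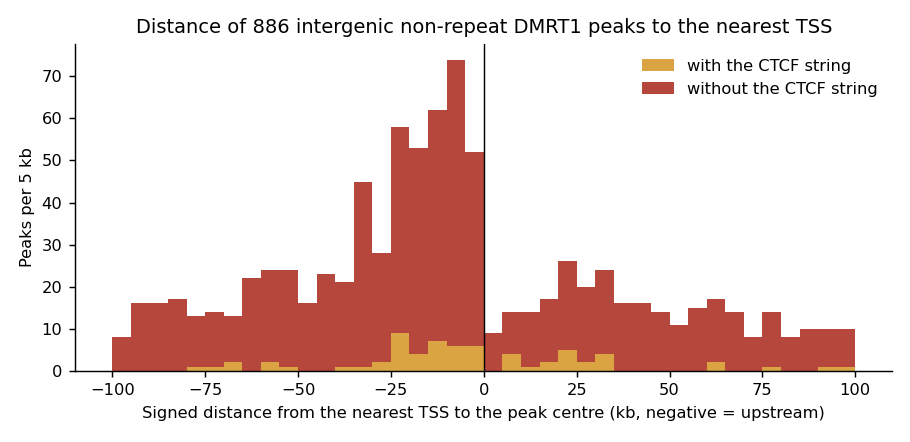
Number of members per 5 kb of signed distance between the nearest TSS and the peak centre, in kb, with negative values upstream, stacked as members with (yellow) and without (red) the CTCF string. Of the 886 members 599 lie upstream, and the counts thin out on both sides with distance.

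At the 2 kb limit the members just inside were at RGS1 (2101 bp), ATOSA (2125 bp) and B3GNT2 (2215 bp), all upstream, and the peaks just outside were 1866 bp, 1838 bp and 1821 bp upstream of YPEL2, DIPK2A and ZC3H6. At the upper limit the last members were at LINC02472 (99965 bp) and NEIL3 (99309 bp), and the closest peak beyond it was at TSLP (100354 bp). Of the 10 members closest to a TSS, at RGS1, ATOSA, B3GNT2, LOC101928272, PRG4, LINC00620, ABCA4, BNC1, LINC01608 and RASA2, only B3GNT2 and BNC1 held a core, 1 each, and ABCA4 and BNC1 held the fitted motif.

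The label of intergenic rests on the authors' annotation. Against GENCODE release 44, 581 members (65.6%) had their centre outside every gene, 182 (20.5%) lay in a lncRNA gene, 101 (11.4%) in a protein-coding gene and 22 (2.48%) in another kind of gene. A GENCODE TSS of any transcript lay within 2 kb of 92 members (10.4%), so 551 (62.2%) were intergenic and distal in both annotations. Those 551 gave core and fitted-motif ratios of 3.96 and 3.84 to their flanks. The peak assigned to PRDM9, for example, was 61.8 kb upstream by the deposited annotation, but 2208 bp away from a GENCODE PRDM9 start and inside a protein-coding GENCODE gene.

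In base composition the members were AT-rich. Their median GC content was 37.7% (quartiles 35.2 and 41.1%), against 39.0% in the flanks, and GC was higher in the peak in 403 pairs and in the flank in 467 (exact sign test p = 0.0326). CpGs were scarcer, at a mean of 2.56 per peak and 3.18 per flank (peak higher in 311 pairs, flank higher in 406, exact sign test p = 4.40e-04). At least 3 CpGs were in 279 members (31.5%) and 342 flanks (38.6%; exact McNemar p = 7.35e-04). The GC difference did not pass with flanks above the peak (exact sign test p = 0.0538), in members outside GENCODE genes (p = 0.197) or in unique sequence (p = 0.179). The rule kept named repeats out of the members but not out of the flanks. Its part in these GC and CpG differences was not tested.

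Compared with intron peaks, the members were the more GC-rich. Of the members 56.1% lay above the median GC of all peaks, against 48.3% of far intergenic peaks (adjusted p = 0.0171, Fisher's exact test over 6 comparisons) and 45.4% of intron peaks (adjusted p = 1.48e-06). More than 1 CpG was in 50.6% of members, against 43.1% of far intergenic peaks (Fisher's exact test, adjusted p = 0.0171) and 47.2% of intron peaks (adjusted p = 0.140). Without the peaks that held a CTCF string, the GC difference stood against introns (53.0% against 44.3%, Fisher's exact test, adjusted p = 2.62e-04) and was not called against far intergenic peaks (53.0% against 47.7%, adjusted p = 0.114). The GC call against far intergenic peaks was also lost in 200-base windows (Fisher's exact test, adjusted p = 0.0881), outside GENCODE genes (adjusted p = 0.0661) and in unique sequence (adjusted p = 0.0638). The CpG call against them was lost in 200-base windows (Fisher's exact test, adjusted p = 0.512), in unique sequence (adjusted p = 0.138) and without the CTCF string (adjusted p = 0.114), while a CpG call against introns appeared in members up to 50 kb (adjusted p = 0.0122). Width differences were not called, with medians of 285 bases in members, 273 in far intergenic peaks (Fisher's exact test of shares above the median of all peaks, adjusted p = 0.140) and 293 in introns (adjusted p = 0.248). With only the members restricted to unique sequence, the share above the median width differed by -6.02 points (members minus introns) and was called (Fisher's exact test, adjusted p = 0.0191).

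Wide members held the DMRT sequences more often than narrow ones, and so did their flanks, which have the same widths. The 48 members of 600 bases or more held the core in 35.4% and the fitted motif in 45.8%, and their flanks held 12.5% and 10.4%. The 173 members of 200 bases or less held them in 11.0% and 6.36%, with 2.31% and 3.47% in the flanks. The CTCF string ran the other way, in 8.33% of the wide and 16.8% of the narrow members. These are descriptions, with no test of the trend.

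Most members with a core had a lone copy. There were 160 members with 1 core, 21 with 2 and 3 with 3, and the other three, near MIR6072, ZNF250 and LINC02181, held 9, 7 and 8. In the LINC02181 peak neighbouring copies start 23 to 26 bases apart, with gaps of 60 and 61 bases between runs, and in the MIR6072 peak 21 to 102 bases apart, with 39 and 63 bases recurring. Both stretches are shown on the + strand with cores in capitals, the LINC02181 stretch with all 8 of its cores and the MIR6072 stretch with 5 of its 9.

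LINC02181, chr16:87101417-87101666: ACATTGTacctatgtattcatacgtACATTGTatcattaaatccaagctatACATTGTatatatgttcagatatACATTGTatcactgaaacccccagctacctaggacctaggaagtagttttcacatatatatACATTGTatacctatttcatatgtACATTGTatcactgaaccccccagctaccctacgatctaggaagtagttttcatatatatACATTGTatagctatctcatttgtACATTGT
MIR6072, chr10:2048555-2048814: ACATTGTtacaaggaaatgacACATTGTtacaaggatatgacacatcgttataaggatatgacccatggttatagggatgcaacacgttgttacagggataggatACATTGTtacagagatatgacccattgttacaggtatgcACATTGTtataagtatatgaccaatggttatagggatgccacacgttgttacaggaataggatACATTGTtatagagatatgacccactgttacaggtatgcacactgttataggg

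The MIR6072 peak also held 12 shifted palindromes, the highest number in a member, and 3 of the 5 cores shown run on into them as ACATTGTTACA. All words of 31 bases in the LINC02181 peak, and 94.0% of those in the MIR6072 peak, occur once in the genome, so these arrays are placed by sequence. AP-1 strings had an array of their own. The widest member, 24.8 kb from RABL2A and 2895 bases long, held 55 of the 210 AP-1 strings at a median spacing of 51 bases, and only 11.6% of its words were unique. A stretch of it is shown with AP-1 strings in capitals.

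RABL2A, chr2:113650997-113651156: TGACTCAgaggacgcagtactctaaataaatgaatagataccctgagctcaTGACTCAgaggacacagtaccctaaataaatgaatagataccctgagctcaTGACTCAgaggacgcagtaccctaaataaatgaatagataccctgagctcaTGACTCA

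The member counts above treat such a peak as 1 member, so an array adds nothing to the shares. The other wide members were near BNC1 (1559 bases), LUZP6 (997), DPPA5 (869) and ABCB10 (861), and the BNC1 peak, 2.40 kb upstream of a zinc-finger gene, held 1 core.

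Sequence that occurs more than once in the genome bears on where reads could be placed. All words of 31 bases were unique in 733 members (82.7%), and under 50% of the words were unique in 49 (5.53%), against 2.20% of far intergenic and 1.83% of intron peaks. The 49 included 13 on chromosome 9. The 4 members nearest to FAM74A1 had no unique word at all, with a median of 4 genome copies per word, and the 4 nearest to ZNF658 had between 8.01% and 43.0% unique words. The FAM74A1 members spread between chr9:39404199 and chr9:60967436, each 33.3 to 37.4 kb from a TSS of that name. These cannot all be distances to the same TSS. From which of the copies the reads at these 8 members came was not tested. In the 733 members made of unique sequence the core ratio was 3.75 and the fitted-motif ratio 3.50.

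Counted by name, the members had 794 different nearest genes, of which 716 had 1 member, 68 had 2, 7 had 3 and 3 had 4. The nearest gene was protein-coding for 539 members (60.8%), a non-coding RNA for 300 (33.9%), a pseudogene for 37 and a snoRNA for 9, with none given for 1. In the far intergenic group 244 of 501 (48.7%) were protein-coding. Apart from FAM74A1 and ZNF658 the gene with the most members was the non-coding LINC01362, with 4 at 21.5 to 92.5 kb upstream. Among protein-coding genes, GRAMD2B had 3 at 5.94, 20.9 and 31.3 kb upstream, 2 of them with a core, RC3H1, an RNA-binding regulator of mRNA decay, had 3 without a core or fitted motif, and the zinc-finger gene ZFP64 had 3. All 3 members at LINC02114 held the fitted motif.

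Another peak of any kind lay within 10 kb of 91 members (10.3%), against 7.39% of far intergenic and 13.9% of intron peaks, and the median distance between a member and the nearest peak was 100.6 kb. The closest members were 327 bases apart (centres at LINC02490), then 410 (LOC100130992), 540 (LINC02087), 574 (ATIC) and 608 bases (LOC101926964). Both LOC101926964 peaks and both LINC02087 peaks held a core, and the LINC02490 and ATIC peaks held neither a core nor the fitted motif.

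Genes of germ cell and signalling pathways were looked up among the nearest genes. In the RefSeq annotation, 20037 genes were protein-coding, and 495 of them (2.47%) were nearest to a member, and 3324 (16.6%) to any peak. From 15 lists of genes, 19 genes had a member, 1 each. Of the BMP, activin and TGF-beta pathway, whose ligands start human germ cell fate, 7 of 54 genes (13.0%) had one, and 19 (35.2%) had a peak of any kind. The shares of the other lists ran between 0% and 11.1%, and no list was tested.

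The 7 comprised ligands, receptors and signal transducers. The ligands were BMP2 (78.4 kb downstream), BMP5 (94.1 kb upstream) and BMP6 (28.1 kb upstream). The type I receptor ACVR1 had a member 26.7 kb upstream and the type II receptor ACVR2A 61.8 kb upstream, and the transducers SMAD1 and SMAD5 had theirs 62.4 and 9.30 kb upstream. BMP6 had the fitted motif and the others neither it nor the core, while the AP-1 string was in the members at ACVR1, ACVR2A and BMP6. By the nearest GENCODE protein-coding TSS 5 of the 7 kept their member, and BMP5 and ACVR1 did not.

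BMP6, fitted motif, chr6:7697876-7697920: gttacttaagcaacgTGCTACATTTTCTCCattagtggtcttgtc
ACVR2A, AP-1, chr2:147782627-147782663: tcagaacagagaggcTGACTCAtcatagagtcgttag

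In the WNT pathway 3 of 60 genes (5.00%) had a member, the inhibitor DKK1 (13.9 kb downstream) and the enhancers RSPO2 (81.8 kb upstream) and RSPO3 (16.2 kb upstream), all with an AP-1 string and without core or fitted motif. An AP-1 string was in 15.7% of all members. Of the genes for germ cell specification and pluripotency 2 of 41 had one, SOX2 (79.6 kb downstream), a pluripotency factor that human germ cells switch off, and DPPA5 (14.4 kb downstream), an RNA-binding protein of pluripotent and germ cells. The later germ cell list had 2 of 43, PIWIL1 (57.6 kb upstream), a piRNA-binding Argonaute, and GTSF1L (22.9 kb upstream). PIWIL1 was also the 1 of 22 targets named by the study, a list that the study drew from its own CUT&RUN of DZ+PGCLCs and that is not independent evidence, and 16 of the 22 had a peak of any kind. The paper named PIWIL1 and other targets from cells of an earlier day, at a stricter peak threshold than the day 8 list used here. The lists therefore need not match.

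DMRT1 itself was the 1 of 9 DMRT family genes with a member, 13.5 kb upstream of its TSS, with 1 core, in unique sequence and outside GENCODE genes. The transgene is a further source of DMRT1 coding sequence in these cells, and its part in this peak was not tested. The sites at the germ cell genes are shown with the matched bases in capitals.

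DMRT1, core, chr9:828116-828152: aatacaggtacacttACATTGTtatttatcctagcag
SOX2, core, chr3:181791296-181791319: gcACAATGTgttgtttcagcatag
SOX2, fitted motif, chr3:181791640-181791684: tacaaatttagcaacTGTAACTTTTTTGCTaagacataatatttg
PIWIL1, fitted motif, chr12:130280260-130280304: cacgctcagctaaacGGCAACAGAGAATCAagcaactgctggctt
DPPA5, AP-1, chr6:73339575-73339611: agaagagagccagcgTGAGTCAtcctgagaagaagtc

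SOX2 had both the core and the fitted motif, 2 separate sites in 1 peak of 511 bases, and PIWIL1 the fitted motif alone on the − strand. The PIWIL1 site scored 11.94, just above the threshold of 11.75 and below the stricter one of 12.97. The SOX2 and BMP6 sites scored 14.10 and 14.37. The remaining list genes were FABP5, a fatty-acid and retinoic acid carrier (1 of 25 of its list), PRDM9, the histone methyltransferase that places meiotic recombination (1 of 32 meiosis genes and of 38 genes of histone methylation and acetylation), and the heart and mesoderm factors NKX2-5 and ISL1 (2 of 25). SOX2 was also the 1 of 28 neural markers. None of the 19 cell cycle inhibitors, 22 DNA methylation genes, 26 gonadal somatic markers and 20 endoderm markers had a member in the deposited annotation, although 6, 6, 5 and 3 of them had a peak elsewhere. By the nearest GENCODE protein-coding TSS, 1 DNA methylation gene (MBD2) and 2 gonadal somatic markers (SOX9, NR2F2) had one, and the cell cycle and endoderm lists stayed at 0. On that count GATA3 and ZIC2 joined the specification and pluripotency genes (4 of 41) and NANOGP8 the targets named by the study (2 of 22), while RSPO2 left the WNT genes (2 of 60). Over the 19 members at list genes, 4 (DMRT1, SOX2, BMP6, PIWIL1) had the core or the fitted motif and 9 had an AP-1 string. Among all 886 members the shares were 35.4% and 15.7%. The 19 were picked by list, and these counts were not tested.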

How the data were processed

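CUT&RUN libraries with a DMRT1 antibody (2) and rabbit IgG (1) came from day 8 DZ+PGCLCs. The authors trimmed reads with leeHom, aligned them to GRCh38 (hg38) with Bowtie2 (2.2.5 in the submitters' processing notes, another version in the methods) and called peaks with MACS2 against IgG, keeping duplicates, at −log10 q above 8. They deposited 1 HOMER-annotated table of common peaks. The deposited values are start, end and distance to the TSS in base pairs; no signal is given, replicates could not be compared, and depth is unknown.

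From these coordinates, sequence was read from hg38 (pysam 0.24.0), after the deposited distance was matched to a GENCODE TSS within 1 base for 3955 of 5054 peaks at protein-coding genes. A total of 22 strings were sought on both strands, and a 15-position matrix was fitted by expectation maximisation to 1565 non-repeat peaks outside the 3 groups compared. Peaks and flanks were compared by exact McNemar and sign tests, groups by Fisher's exact test, two-sided, with Benjamini-Hochberg adjustment (scipy). Procedures were tested on simulated data. Peaks near each other are not independent, and intervals cover counting error only. Gene symbols were updated by Entrez identifier (883 of 885 found). Coordinates are 1-based.

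Named members followed a rule: genes in a list, the 10 closest to a TSS, the 10 highest scores, most cores (10), the 5 widest, the 5 closest pairs and the 10 genes with most members. Members and lists were chosen with earlier results of these data known.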

Additional observations from a re-analysis of the deposited data

How the results depend on the processing

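Alternatives were flanks 5 kb above or 1 kb below, 200-base windows, other thresholds, and members outside GENCODE genes, at or above the median width, without a peak within 10 kb or up to 50 kb away. Those with every 31-base word unique, and without the CTCF string, were chosen after seeing the data. The core ratio to flanks stayed between 3.48 and 6, and that of the fitted motif between 3.50 and 7.20. The share of pairs with higher GC in the peak (46.3%) lost its call at 46.7% with flanks above, 47.1% outside GENCODE genes and 47.4% in unique sequence. Strings less frequent in members numbered 2 in place of 1 with flanks 5 kb above and with flanks 1 kb below, where the homeobox string TAATTA joined KLF. Calls in composition against the other groups numbered 1 in place of 3 in 200-base windows and without the CTCF string. Of the ratios of core and fitted motif by distance none was called, and both changed sides once, the core to 1.02 in unique sequence and the fitted motif to 1.07 with GENCODE distances. Leaving out a replicate, a stricter peak threshold and a paired analysis were not possible because 1 list without scores or replicate values was used.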
